A study of Mus musculus with 4 samples.

Results

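The genes described here are the interleukins and the interleukin receptors of the mouse, read through chromatin accessibility in bone marrow progenitor cells. They are the protein-coding genes whose symbol is Il followed by a digit, with 5 receptor genes left out of the list (Il3ra, Il5ra, Il6ra, Il6st and Il7r). The rule found 78 of 21887 protein-coding genes, of which 37 encode ligands, 36 encode receptors (the soluble Il22ra2 and the decoy Il1r2 among them), 3 encode soluble antagonists (Il1rn, Il1f5 and Il18bp) and 2 encode L-amino acid oxidases that carry an interleukin-induced name (Il4i1 and Il4i1b). Peaks with their midpoint in the gene body or within 20 kb of it were joined across libraries where they shared 1 bp. This gave 364 regions near the members, of 63195 regions near any protein-coding gene.

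ATAC-seq, which cuts and tags open DNA with a transposase, was run on MPP3 cells sorted from the bone marrow of WT-iMOS mice aged 3 months. MPP3 are multipotent progenitors whose output leans to granulocytes and monocytes. The 2 libraries of the T2 group carry the genotype label WTiMOS_T2, and the 2 libraries of the T1 group carry the label WTiMOS_T1. The stated question of the study is what Bcl11a, a zinc-finger transcription factor, does within these cells. The labels do not say what sets T2 apart from T1, and the peak names begin with MG in the T2 lists and with WG in the T1 lists. Nothing in the labels says whether libraries 1 and 2 of a group come from separate animals, so the spread between them may be technical.

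Interleukins are secreted signals between blood cells, and most act on a receptor built from a ligand-binding chain and a signalling chain that several interleukins share. The IL-1 family signals through Myd88 and the Irak kinases, while the IL-2, IL-6, IL-10 and IL-12 families signal through Jak kinases. In bone marrow, signals such as IL-1 and IL-6 reach progenitors and are known for turning output towards myeloid cells. A cell that responds to an interleukin carries its receptor, whether or not it makes any interleukin itself.

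The T2 lists held 66776 and 62718 peaks, against 58469 and 54057 peaks in the T1 lists. The files give peaks with a fold value and a −log10 q, and no read counts, so the sequencing depth of each library is unknown. The labelled cell type was checked at gene starts: Kit, Cd34, Cd48, Flt3 and Cebpa had a start peak in all 4 libraries, Mpo had one in both T2 libraries alone, and Elane had none. Start peaks were absent from all 4 libraries at the T cell genes Cd3e, Cd3g and Cd8a, the NK cell genes Ncr1 and Klrb1c, the erythroid genes Klf1 and Epor and the neutrophil gene Ly6g. The B cell genes Cd79a and Pax5 had a start peak in 3 libraries, the erythroid gene Gata1 had one in both T2 libraries, the myeloid gene Itgam had one in 1 library and the endothelial gene Kdr had one in all 4. The part of other cell types in the results was not tested.

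The starts that the ligand and receptor results turn on are shown by the 250 bases before a start given by RefSeq (build GRCm38.p6, which is mm10). They are read 5′ to 3′ on the gene's strand. For Il12a, Il4 and Il1r1 this start lies inside the gene, and the outer 5′ end of the gene held no peak in any library. The Il12rb2 start also lies inside the gene, and its outer 5′ end held a peak in all 4 libraries. Each window shown overlaps a region with a peak in all 4 libraries. Il12a (chr3:68691174-68691423, plus strand), Il6 (chr5:30012864-30013113, plus), Il18 (chr9:50554450-50554699, plus) and Il4 (chr11:53617339-53617588, minus) are the ligands. Il11ra1 (chr4:41760193-41760442, plus), Il12rb2 (chr6:67376189-67376438, minus) and Il1r1 (chr1:40224830-40225079, plus) are the receptors. Capitals mark matches to the 8 motifs searched, which are named after the sequences.
Il12a: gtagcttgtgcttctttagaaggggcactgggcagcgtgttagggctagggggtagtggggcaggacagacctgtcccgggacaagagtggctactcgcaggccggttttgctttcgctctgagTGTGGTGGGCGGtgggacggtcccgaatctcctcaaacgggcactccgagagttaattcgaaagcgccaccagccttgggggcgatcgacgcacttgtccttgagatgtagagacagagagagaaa
Il6: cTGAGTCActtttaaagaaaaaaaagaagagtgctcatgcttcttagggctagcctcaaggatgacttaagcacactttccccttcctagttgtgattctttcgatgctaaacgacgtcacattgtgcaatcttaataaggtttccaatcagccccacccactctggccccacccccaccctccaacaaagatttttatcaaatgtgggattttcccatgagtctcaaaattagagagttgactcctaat
Il18: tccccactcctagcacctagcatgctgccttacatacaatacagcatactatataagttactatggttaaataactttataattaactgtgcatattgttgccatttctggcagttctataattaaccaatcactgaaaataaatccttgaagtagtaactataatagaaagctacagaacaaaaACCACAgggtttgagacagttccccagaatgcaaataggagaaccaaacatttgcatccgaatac
Il4: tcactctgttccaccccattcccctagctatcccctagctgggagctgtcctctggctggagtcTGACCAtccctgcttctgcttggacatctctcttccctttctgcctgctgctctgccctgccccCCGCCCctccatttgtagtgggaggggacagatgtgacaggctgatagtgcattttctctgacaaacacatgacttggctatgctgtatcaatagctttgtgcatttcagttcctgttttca
Il11ra1: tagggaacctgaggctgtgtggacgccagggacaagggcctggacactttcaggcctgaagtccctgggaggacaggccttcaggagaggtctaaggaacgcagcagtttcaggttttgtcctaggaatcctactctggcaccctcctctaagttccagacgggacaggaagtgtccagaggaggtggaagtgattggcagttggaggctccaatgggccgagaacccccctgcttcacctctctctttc
Il12rb2: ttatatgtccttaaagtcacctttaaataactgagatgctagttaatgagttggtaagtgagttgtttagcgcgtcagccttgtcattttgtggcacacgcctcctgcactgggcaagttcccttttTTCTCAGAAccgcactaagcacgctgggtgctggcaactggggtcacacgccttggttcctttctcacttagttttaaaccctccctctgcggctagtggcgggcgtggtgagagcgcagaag
Il1r1: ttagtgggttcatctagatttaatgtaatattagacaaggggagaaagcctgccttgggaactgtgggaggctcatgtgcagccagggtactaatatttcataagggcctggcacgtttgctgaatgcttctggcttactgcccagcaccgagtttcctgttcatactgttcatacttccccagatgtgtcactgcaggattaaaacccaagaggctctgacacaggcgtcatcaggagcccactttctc

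The motifs, searched on both strands, were GAGGAA for the PU.1 type of ETS factor, TGTGGT for RUNX, TTGCNNCAA for CEBP, TGANTCA for AP-1, AGATAA for GATA, TTCNNNGAA for STAT, TGACCA for BCL11A and GGGCGG for the GC box. The Il12a window holds a RUNX match that runs into a GC box match without a gap. The Il6 window holds an AP-1 match, the Il18 window a RUNX match, the Il4 window a BCL11A and a GC box match and the Il12rb2 window a STAT match, and the Il11ra1 and Il1r1 windows hold no match. TGACCA was in 9.09% of 33 windows of members with a start peak in every library, in 7.89% of 38 windows of members with no start peak and in 10.5% of all 21263 windows. AGATAA was in 0 of the 33 windows, in 21.1% of the 38 windows and in 8.81% of all windows, and GGGCGG was in 36.4%, 13.2% and 42.6% in the same order. A match describes the letters and does not show that a factor binds.

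Start peaks were found at fewer ligand genes than receptor genes. Of 27 ligand genes with a start in the RefSeq table, 5 had a start peak in all 4 libraries (18.5%, 95% Wilson interval 8.18 to 36.7%). Of 29 receptor genes with a start there, 18 had one (62.1%, interval 44.0 to 77.3%), and so did 10226 of 17492 protein-coding genes (58.5%). The intervals cover counting error over genes, which are not replicates, and the difference between the classes was not tested. Ligand starts with a peak numbered 6 and 7 in the T2 libraries, against 6 and 5 in the T1 libraries. Receptor starts with a peak numbered 20 and 18 in the T2 libraries, against 18 in each T1 library. The gap between ligands and receptors was thus present within each of the 4 libraries, and T2 and T1 touched or overlapped in both classes. The table's window lies at an outer end of the gene for 10629 of the 17492 genes and inside the gene for the rest. With the outer 5′ end of each gene added to the windows, 5 of 27 ligand genes (18.5%), 20 of 29 receptor genes (69.0%) and 59.6% of all genes had a start peak in every library, and the receptors gained were Il1rl1 and Il9r. Adding windows cannot lower a count. At the outer 5′ end alone, a peak in every library was found at 2 of 27 ligand genes (7.41%) and 17 of 29 receptor genes (58.6%). Over all genes that share was 51.8%.

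**Figure D1:**
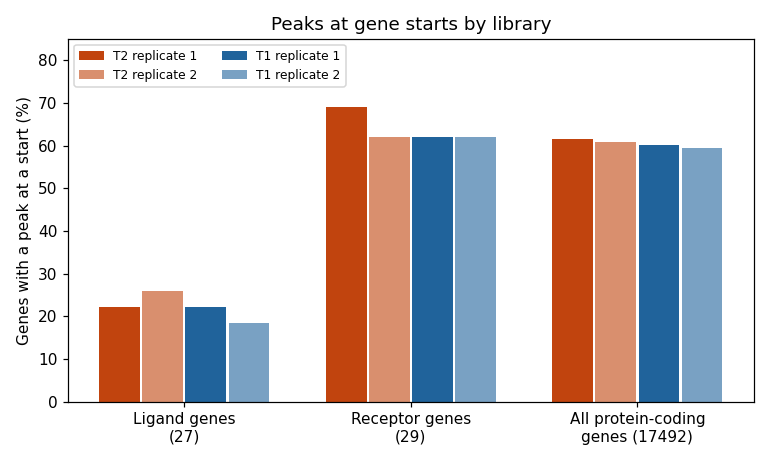
Share of genes (percent, vertical axis) with a peak at a start, by library, for ligand genes, receptor genes and all protein-coding genes; each bar is 1 library, T2 in orange and T1 in blue. Ligand bars run from 18.5 to 25.9%, receptor bars from 62.1 to 69.0% and the bars of all genes from 59.4 to 61.5%.

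The 5 ligand genes with a start peak in every library were Il12a (the p35 subunit of IL-12), Il6, Il16 (a chemoattractant for CD4+ cells), Il18 and Il4. For Il12a, Il16 and Il4 the peak lay at a start inside the gene, and the outer 5′ end held none in any library. Il17d had a start peak in 3 libraries, and Il2, the T cell growth factor, had one in T2 replicate 2 alone, at the lowest edge of that list (percentile 0.1). No start peak was found at the 20 others: Il17a, Il17f, Il17c, Il20, Il19, Il22, Il1a, Il1b, Il1f8, Il1f9, Il1f10, Il33, Il21, Il31, Il11, Il12b, Il13, Il5, Il3 and Il9. Receptor starts with a peak in every library included Il1r1, the signalling receptor of IL-1, its decoy Il1r2, the shared co-receptor Il1rap and the IL-36 receptor Il1rl2. They also included both IL-18 receptor chains (Il18r1 and Il18rap), Il2rg (the common gamma chain), Il4ra, Il13ra1, Il15ra, Il21r, Il11ra1, Il12rb2, Il20ra, Il17rb (the IL-25 receptor), Il17rd, Il17re and Il1rapl2. Among these receptors, the outer 5′ ends of Il1r1, Il15ra and Il20ra held no peak in any library. The IL-22 receptor chain Il22ra1 had a start peak in T2 replicate 1 alone, as did the IL-33 receptor Il1rl1 in its tabled window, while its outer 5′ end held a peak in all 4 libraries. The 9 receptor genes with no peak in their tabled window were Il2ra (the IL-2 receptor alpha chain), Il9r, Il17rc, Il20rb, Il31ra, Il23r, Il11ra2, Il1rapl1 and Il13ra2. For Il9r, the IL-9 receptor, that window lies inside the gene, and its outer 5′ end lies in a strong region shared with the start of Snrnp25. Il11ra2 is a near-identical copy of Il11ra1, so reads of the pair may be split or dropped, and both are uncertain. Start windows were not used for Il27, Il10, Il23a, Il7, Il1f6, Il24, Il34, Il15, Il25 and Il17b among the ligands, or for Il2rb, Il10rb, Il12rb1, Il22ra2, Il17ra, Il10ra and Il27ra among the receptors.

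Start windows also differed in base composition. Each gene was counted by the highest value among its windows, whether or not that window held the peak. The median GC content of the 250 bases was 52.8% for the 5 ligand genes with a start peak in all libraries and 45.8% for the 20 ligand genes with none. It was 56.0% for the 18 receptor genes with a start peak in all and 47.6% for the 9 receptor genes with none. It was 56.4% over all genes. The median observed over expected CpG ratio was 0.277, 0.249, 0.497 and 0.201 in the same order, and 0.574 over all genes. The part of base composition in the share of starts with a peak was not tested.

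The strength of each start peak was read as a percentile, the rank of its −log10 q within its own library's list, where 100 is the strongest. Over the 24 start regions with a peak in all libraries, which include that of Il4i1b shared with the starts of Atf5 and Nup62, the median of the mean percentiles was 69.3 in T2 and 64.2 in T1, against 84.8 and 83.7 over the starts of all genes. Both T2 percentiles lay above both T1 percentiles in 15 of the 24 (62.5%), beside 33.6% of 9779 shared start regions of all genes. They lay below both in 3 (12.5%), beside 16.4%. Percentiles move with list length, since weak peaks added to a list lift the rank of those above them, and the T2 lists were the longer ones. Ranked again among regions shared by all 4 libraries, 8 of 24 were higher in T2 (33.3%, beside 21.6%) and 5 were lower (20.8%, beside 30.3%). The median difference, T2 minus T1, was then 1.91 percentile points, beside −0.52 over all starts.

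Among ligand starts, that of Il12a differed most. Its region (chr3:68691016-68692624, mm10) stood at percentiles 63.9 and 52.7 in the T2 libraries, against 39.6 and 21.9 in the T1 libraries, with −log10 q of 36.6 and 23.5 in T2, against 16.97 and 9.25 in T1. The groups did not overlap, and the difference was 27.6 points in the whole lists and 22.2 points among shared regions. The Il6 start (chr5:30012736-30013596) went the other way, at 84.3 and 83.8 in T2, against 90.9 and 88.9 in T1. The Il18 start (chr9:50554602-50555274), which is also a start of Bco2, a carotenoid-cleaving enzyme, stood at 72.4 and 68.0 in T2, against 85.1 and 79.6 in T1. Both stayed lower in T2 among shared regions, with differences of −10.5 points for Il6 and −20.8 points for Il18. The Il16 start (chr7:83655130-83655755) stood at 88.8 and 90.6 in T2, against 85.1 and 88.4 in T1. The Il4 start (chr11:53617000-53617622) stood at 55.5 and 52.2 in T2, against 50.3 and 46.7 in T1. Neither the Il16 nor the Il4 start was higher in T2 once ranked among shared regions, where Il16 overlapped between groups and Il4 was lower in T2, with a difference of −1.11 points.

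Among receptor starts, 12 of 18 were higher in T2 in the whole lists (66.7%, beside 33.6% of the shared starts of all genes). In 1, that of Il2rg, T2 was lower (5.56%, beside 16.4%). Ranked among shared regions, 21.6% of the starts of all genes were higher in T2 and 30.3% lower. The Il11ra1 start (chr4:41760199-41760939) stood at 83.0 and 82.8 in T2, against 68.2 and 62.7 in T1, a difference of 17.4 points that was 18.5 points among shared regions. The Il12rb2 start, of the signalling chain for IL-12 (chr6:67375694-67376589), stood at 92.2 and 92.6 in T2, against 88.2 and 89.3 in T1. The Il1r1 start (chr1:40224643-40225340) stood at 91.7 in each T2 library, against 87.2 and 88.6 in T1. These 3 stayed higher in T2 among shared regions. So did 4 weaker ones, of which Il21r stood at 61.2 and 59.8 in T2, against 47.3 and 45.5 in T1. Il17rd, known as an inhibitor of FGF signalling, stood at 54.4 and 53.8 in T2, against 40.2 and 34.9 in T1. Il17rb, whose region is also a start of Chdh, stood at 65.7 and 71.3 in T2, against 58.7 and 55.1 in T1, and Il13ra1 stood at 19.5 and 11.6 in T2, against 9.7 and 3.9 in T1.
The Il2rg start stood at 60.9 and 57.3 in T2, against 62.6 and 63.8 in T1, and was lower in T2 in the whole lists and among shared regions. Il1rap had the highest mean percentile of the receptor starts, at 94.3 and 94.1 in T2, against 96.4 and 92.3 in T1, and its groups overlapped. The Il18r1 start stood at 58.2 and 60.4 in T2, against 52.7 and 16.1 in T1, so T1 replicate 2 stood far below the other 3 libraries, and the groups overlapped among shared regions. Il18rap, Il20ra, Il1rl2 and Il1rapl2 were higher in T2 in the whole lists and overlapped among shared regions, while Il1r2, Il15ra, Il4ra and Il17re overlapped in both rankings. The Il1r2 start ranked here lies inside the gene. The region at its outer 5′ end (chr1:40084412-40084939) stood at 82.2 and 76.9 in T2, against 61.8 and 57.8 in T1. Among shared regions that region stayed higher in T2, by 20.7 points.

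**Figure D2:**
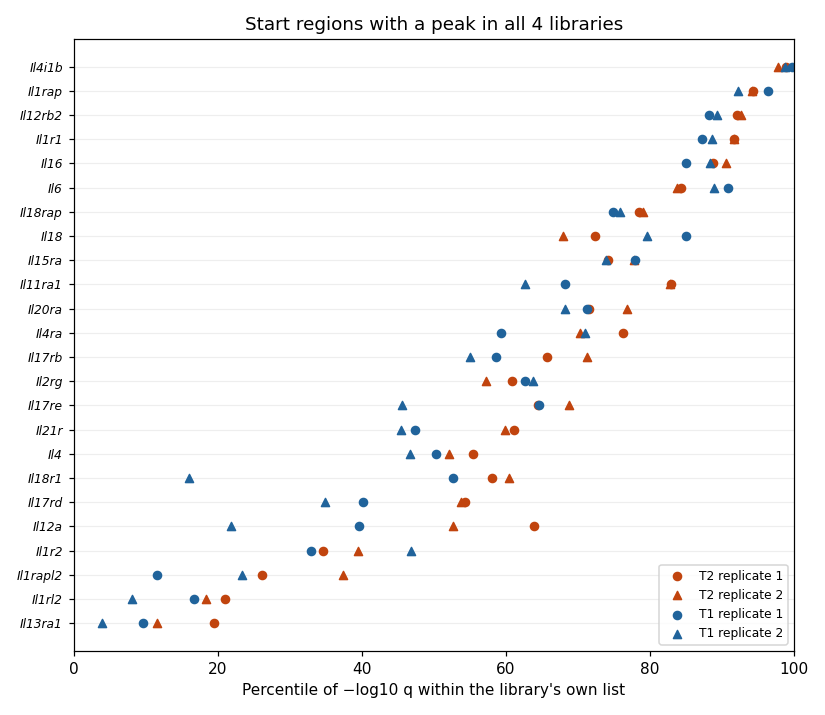
Percentile of −log10 q within each library's own list (horizontal axis) for the 24 member start regions with a peak in all 4 libraries, ordered by mean; orange marks are T2, blue marks T1, circles replicate 1 and triangles replicate 2. Il12a and Il11ra1 show gaps between the groups with T2 higher, and Il18 shows one with T2 lower.

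Counted over the gene body and 20 kb either side, starts included, the classes were closer to each other. In the gene body alone, 16 of 37 ligand genes and 31 of 36 receptor genes had a region. The bodies differ in length, as given below. At least 1 region lay within 20 kb of 31 of 37 ligand genes (83.8%), of 33 of 36 receptor genes (91.7%) and of 17736 of 21887 protein-coding genes (81.0%). Ligand genes had a median of 4 regions, receptor genes 6 and all genes 4. The median window was 46.6 kb for ligand genes, 71.8 kb for receptor genes and 57.2 kb for all genes, and per 100 kb of window the medians were 6.98 for ligand genes, 9.01 for receptor genes and 5.49 for all genes. No region was found near the ligands Il17a, Il20, Il19, Il22, Il1f6 and Il1f8, the receptors Il11ra2, Il13ra2 and Il1rapl1, or the IL-36 receptor antagonist Il1f5. The ligands with most regions were Il16 with 13 and Il18 with 8, and the receptors with most were Il17rd with 16, Il21r with 15 and Il1rl1 with 13. Of the 364 regions, 331 were near a single member and 33 near more than 1, such as the 5 shared by Il4 and Il13. The antagonists Il1rn and Il18bp had 3 and 4 regions and no start peak, and Il4i1b and Il4i1, whose genes overlap and cannot be separated, had 8 and 7.

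**Figure D3:**
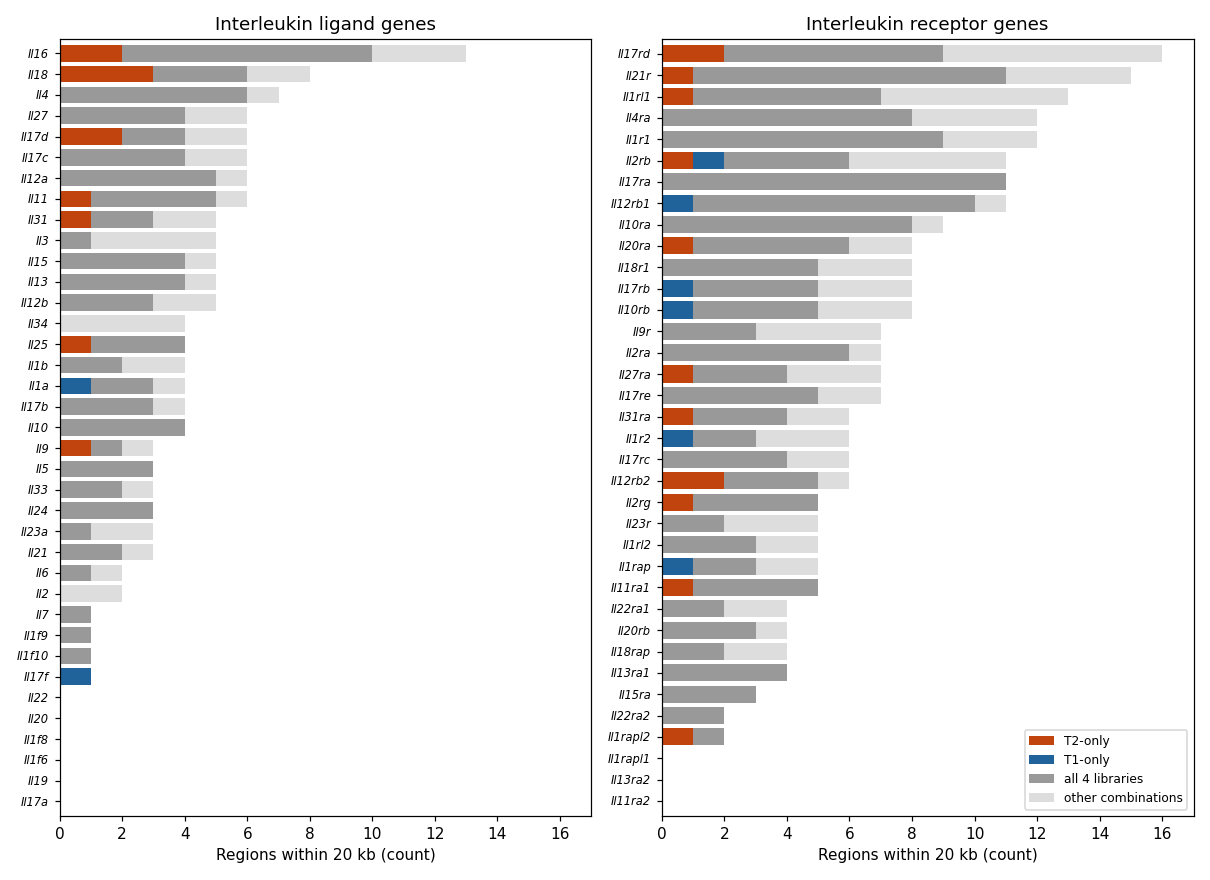
Number of regions within 20 kb (horizontal axis, count) for each ligand gene (left) and receptor gene (right), split into regions with a peak in both T2 libraries and no T1 library, the reverse, all 4 libraries and other combinations. Most bars are led by regions found in all 4 libraries, and 9 of these genes have no region.

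The places of the regions were counted with starts taken before bodies. Of 128 ligand regions, 7 lay at a ligand start, 35 in a ligand body, 14 at the start of another gene, 23 in the body of another gene and 49 between genes. Of 221 receptor regions, 21 lay at a receptor start, 83 in a receptor body, 13 at the start of another gene, 30 in another body and 74 between genes. The strongest region of a gene lay at its own start or in its own body for 6 of 31 ligand genes and 17 of 33 receptor genes, and for Il17rc and Il9r it lay in the body at the start of another gene. Receptor bodies are longer, with a median of 31.8 kb, against 6.60 kb for ligand bodies, and the difference in place was not tested.

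Of the 8 highest regions near ligands, 5 were starts of neighbours and 3 lay between genes. Near Il12a, an intergenic region (chr3:68676763-68677460) stood at percentiles 99.2 and 98.8 in T2, against 99.5 and 99.2 in T1. Near Il1a the top region was the start of Ckap2l, a spindle protein gene (chr2:129296818-129297912; 99.4 and 99.5 in T2, against 98.9 and 97.7 in T1). Near Il17c it was the start of Mvd, a sterol synthesis gene (chr8:122443099-122444694; 97.3 and 98.8 in T2, against 96.3 and 97.5 in T1). All 3 lay near the top of every list: T2 was slightly lower without overlap for Il12a, T2 was higher for Il1a, and the groups overlapped for Il17c.
Near Il23a, the p19 subunit of IL-23, it was the start of Pan2, a deadenylase gene (chr10:128302934-128304059; 97.5 and 93.9 in T2, against 97.8 and 98.0 in T1). Near Il1b it was intergenic (chr2:129373105-129373841; 93.4 and 95.9 in T2, against 94.5 and 95.2 in T1). Near Il16 it was the start of Stard5, a lipid-binding protein gene (chr7:83631445-83632424; 95.5 and 95.6 in T2, against 93.8 and 92.8 in T1). Il9 and Il11, growth factors for mast cells and for megakaryocytes, complete the 8 highest. Near Il9 the region was intergenic (chr13:56476790-56477572; 91.0 and 94.3 in T2, against 90.002 and 92.2 in T1), and near Il11 it was the start of the ribosomal protein gene Rpl28 (chr7:4792556-4793316; 90.6 in each T2 library, against 91.7 and 89.9 in T1).

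Near receptors, 3 of the 8 highest regions were starts of neighbours. These were Arrdc2 near Il12rb1 (chr8:70839185-70840189; 99.7 and 99.4 in T2, against 99.8 and 99.6 in T1), Serbp1 near Il12rb2 (chr6:67266305-67267649; 98.8 and 99.3 in T2, against 98.8 and 98.6 in T1) and Snrnp25 at the outer 5′ end of Il9r (chr11:32204954-32205714; 98.9 and 99.6 in T2, against 97.6 and 97.3 in T1). Il10ra, the ligand-binding chain for IL-10, had an intergenic region (chr9:45274074-45274900) at 98.9 and 99.2 in T2, against 96.2 and 97.7 in T1. Il21r had a region in its own body (chr7:125630101-125630867) at 98.3 and 98.7 in T2, against 97.2 and 96.8 in T1. The Il10ra and Il21r regions did not overlap between the groups, with T2 higher.
Il17ra, the chain shared by IL-17 receptors, had a region in its own body (chr6:120466445-120467282) at 97.8 and 96.8 in T2, against 97.3 and 98.1 in T1. Il11ra1 had one in the body of another gene (chr4:41740508-41741674) at 94.1 and 96.9 in T2, against 94.9 and 92.8 in T1. The highest region of Il1rap was its own start, given above. Below these, Il22ra2 (a soluble IL-22 binding protein) reached a mean percentile of 94.3 over the 4 libraries, Il17rc and Il17re reached 91.2 with the same region, and Il20ra reached 90.6.

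Between T2 and T1, the members followed the whole set of regions. The T2 libraries had a peak in 314 and 300 of the 364 regions, against 285 and 265 in the T1 libraries. The means were 307 ± 9.90 in T2 and 275 ± 14.1 in T1 (SD, n = 2 each; exact permutation test, two-sided, p = 0.333, the smallest p that 2 against 2 libraries allow). As a share of member regions this was 86.3 and 82.4% in T2, against 78.3 and 72.8% in T1. The same share over all regions near genes was 85.6 and 79.9% in T2, against 75.4 and 69.6% in T1. A peak in both T2 libraries and in no T1 library (T2-only) was found in 25 member regions (6.87%, Wilson interval 4.70 to 9.94%), beside 6.56% of all regions near genes. The reverse (T1-only) was found in 9 (2.47%, interval 1.31 to 4.63%), beside 2.22%. Both shares are near the background and are no result about interleukin genes. T2-only regions were 11 of 128 near ligands (8.59%) and 13 of 221 near receptors (5.88%), and T1-only regions were 2 and 6.

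The T2-only regions were weak. In 10 of 25 both −log10 q values reached 10, and 1 had a mean percentile above 50. Their median width was 359 bp, against 701.5 bp for the 222 member regions found in all 4 libraries. Over all regions near genes these medians were 371 and 744 bp. The median percentiles of T2-only regions in T2 replicates 1 and 2 were 22.5 and 24.4 near members, beside 23.7 and 20.5 near any gene. Weakness was thus shared by T2-only regions in general. None of the 25 was at a member's own start, 12 were in a member's body, 7 between genes, 5 in another gene's body and 1 at the start of Bco2. Each is given below with its −log10 q in T2 replicates 1 and 2, and all are absent from both T1 lists.

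Among ligands, Il18 had 3 T2-only regions: one in the body of Bco2 (chr9:50539998-50540467; 10.4 and 12.5), one at a Bco2 start (chr9:50553614-50553943; 17.3 and 8.50) and one in Il18 itself (chr9:50565270-50565534; 19.5 and 12.4). These stand on both sides of the Il18 start region, which ranked lower in T2. Il17d, a member of the IL-17 family, had one in its body (chr14:57527227-57527563; 14.3 and 25.1) and one in Eef1akmt1 (chr14:57554431-57554771; 5.73 and 5.02). Il16 had one in its body (chr7:83677337-83677782; 11.6 and 21.2) and one upstream (chr7:83748524-83748854; 9.54 and 12.4).
The other 4 ligands had 1 each. For Il25, the IL-17 family member that acts on Il17rb, it lay in Cmtm5 (chr14:54939415-54939787; 23.9 and 11.9). For Il9 it lay between genes (chr13:56501985-56502343; 16.0 and 11.2). For Il31, the ligand of Il31ra, it lay in Lrrc43 (chr5:123499684-123500146; 13.1 and 7.78), and for Il11 it lay in the gene (chr7:4779842-4780227; 10.2 and 8.42). The antagonist Il18bp, which binds IL-18, had 1 in Rnf121 (chr7:102019348-102019822; 6.61 and 10.5).

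Among receptors, the strongest T2-only region lay in the body of Il12rb2 (chr6:67318365-67318940; 24.4 and 25.5), and a second Il12rb2 region was weaker (chr6:67296073-67296396; 10.7 and 10.3). Il11ra1 had one just upstream of its start region (chr4:41759256-41759515; 15.2 and 10.4). Il1rapl2, an IL-1 receptor relative known from neurons, had one in its body (chrX:137688075-137688351; 16.0 and 13.5). The other receptor genes had weaker T2-only regions.
The shared chains each had 1 in the gene body, Il2rb (chr15:78481009-78481836; 13.8 and 7.96) and Il2rg (chrX:101265144-101265394; 8.92 and 9.95). So did Il31ra (chr13:112541224-112541619; 10.01 and 6.35) and Il21r (chr7:125618043-125618499; 5.72 and 10.4). Il17rd had one in its body (chr14:27072005-27072310; 3.21 and 7.98) and one between genes (chr14:27108769-27109330; 6.64 and 11.2). Those of Il20ra (chr10:19765489-19765741; 10.6 and 9.03), Il27ra, the IL-27 receptor chain (chr8:84052545-84053205; 7.13 and 11.9), and Il1rl1 (chr1:40397428-40397722; 6.64 and 5.97) lay between genes.

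The 9 T1-only regions, absent from both T2 lists, are given with −log10 q in T1 replicates 1 and 2. Among ligands, Il1a had one between genes (chr2:129320015-129320279; 25.7 and 17.6), and Il17f had its single region in Mcm3 (chr1:20803477-20803739; 5.74 and 2.35). Among receptors, the strongest was near Il12rb1, the chain shared by the IL-12 and IL-23 receptors, within Mast3 (chr8:70801179-70801483; 26.3 and 22.9). The decoy receptor Il1r2 had one between genes (chr1:40064445-40064963; 22.1 and 17.4). Both −log10 q values passed 10 in 4 of the 9, near Il1a, Il12rb1, Il1r2 and Il10rb.
Near Il10rb, a chain shared by IL-10 and IL-22 receptors, it lay in Ifnar2 (chr16:91398086-91398709; 22.2 and 11.4). Il1rap had one in its body (chr16:26626098-26626588; 13.1 and 5.18), and the one near Il17rb lay in Chdh (chr14:30019943-30020516; 8.70 and 5.09). Near Il2rb it was a start of C1qtnf6 (chr15:78529274-78529806; 4.81 and 4.55), and near Il18bp it lay in Rnf121 (chr7:102025275-102026148; 5.74 and 7.30).

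**Figure D4:**
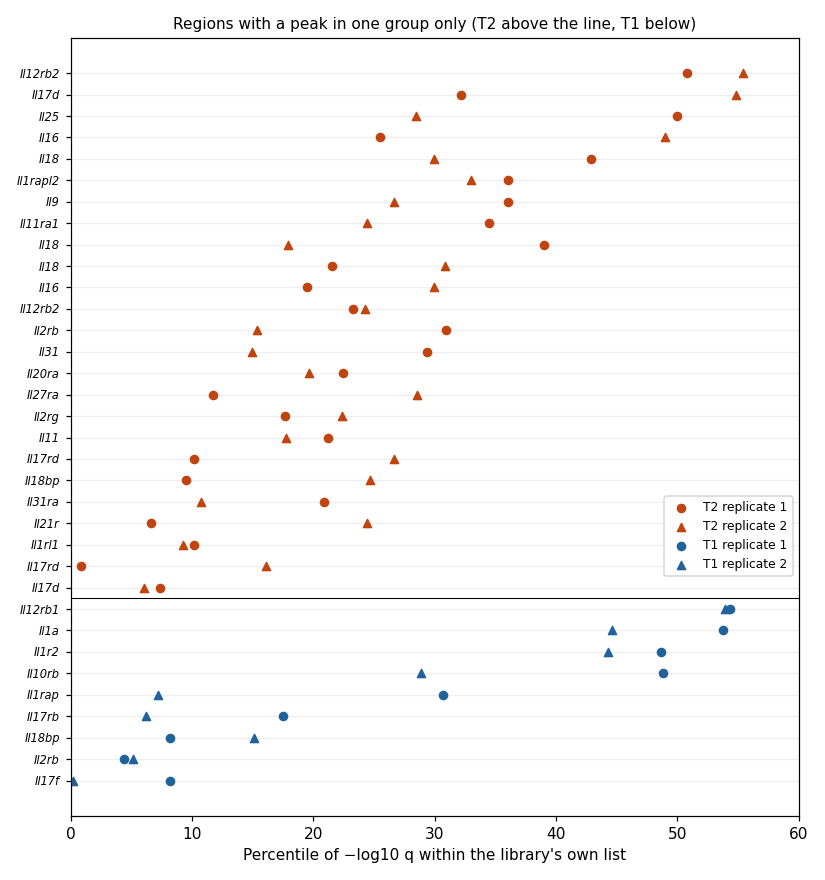
Percentile of −log10 q within each library's own list (horizontal axis) for the 25 T2-only regions (orange, above the line) and the 9 T1-only regions (blue, below), each row 1 region named by its member gene; circles are replicate 1 and triangles replicate 2. Most lie below 50, and the strongest are those of Il12rb2 in T2 and Il12rb1 in T1.

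In the 222 regions with a peak in all 4 libraries, both T2 percentiles were above both T1 percentiles in 87 (39.2%, beside 39.8% of 37032 shared regions near genes) and below both in 32 (14.4%, beside 14.3%). Near ligands these were 28 and 13 of 76, and near receptors 55 and 18 of 136. The median difference was 1.48 points near ligands, 2.11 near receptors and 2.83 over all. Ranked among shared regions, 52 member regions were higher in T2 (23.4%, beside 25.7%) and 64 lower (28.8%, beside 26.6%), with a median of −0.97 points, beside −0.09. The members thus stood close to the background in both rankings, and the sign of their median depended on the ranking.

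Single regions differed by more. In the body of Il2ra (chr2:11655148-11655740), a region stood at 58.4 and 48.9 in T2, against 3.7 and 6.1 in T1, with −log10 q of 30.8 and 21.2 in T2, against 4.33 and 5.07 in T1. Its difference of 48.7 points was the largest among the members in the whole lists and was 33.7 points among shared regions and 27.0 points with fold in place of −log10 q. Its T1 peaks are weak and drop out at a −log10 q of at least 5 or at equal list length, so that no value can be given there. The Il2ra start had no peak. In the window of Il11, a start of Tmem238 (chr7:4788618-4789732) stood at 53.7 and 51.9 in T2, against 20.3 and 26.4 in T1. The Il12a start, given above, was next, and then a region upstream of Il1rl1 (chr1:40391270-40391770), at 67.6 and 51.9 in T2, against 44.9 and 24.4 in T1. The difference of that Il1rl1 region was 14.8 points without T1 replicate 2, in place of 25.1. With fold ranked, the differences were 11.4 points for the Tmem238 start, in place of 29.4, and 17.9 points for the Il12a start.
Regions that ranked lower in T2 were led by one in the body of Il18r1 that also lies in the window of Il1rl1 (chr1:40475585-40476198), at 37.5 and 22.6 in T2, against 57.8 and 64.1 in T1. A region at the outer 5′ end of Il1rl1 (chr1:40404512-40405088) stood at 10.2 and 9.3 in T2, against 47.9 and 23.3 in T1. The Il1rl1 locus thus held regions that ranked higher and regions that ranked lower in T2, and without T1 replicate 1 the last difference was −13.6 points in place of −25.9. An intergenic region near Il1b, the IL-1 beta gene (chr2:129359991-129360693), stood at 54.2 and 55.6 in T2, against 78.4 and 81.3 in T1. A region in the body of Il33, which encodes the ligand of Il1rl1 (chr19:29940318-29940809), stood at 10.2 and 3.2 in T2, against 27.8 and 32.6 in T1. All 4 stayed lower in T2 among shared regions, with differences of −37.9, −21.9, −37.7 and −17.2 points. The T2 peaks were weak at the Il1rl1 end (−log10 q of 6.64 and 5.97) and in Il33 (6.64 and 4.11). These regions drop out at equal list length, and that of Il33 also at a −log10 q of at least 5. No value can be given there. Of the regions named for the largest differences, only those in Il18r1 and near Il1b kept a value at a −log10 q of at least 10.

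**Figure D5:**
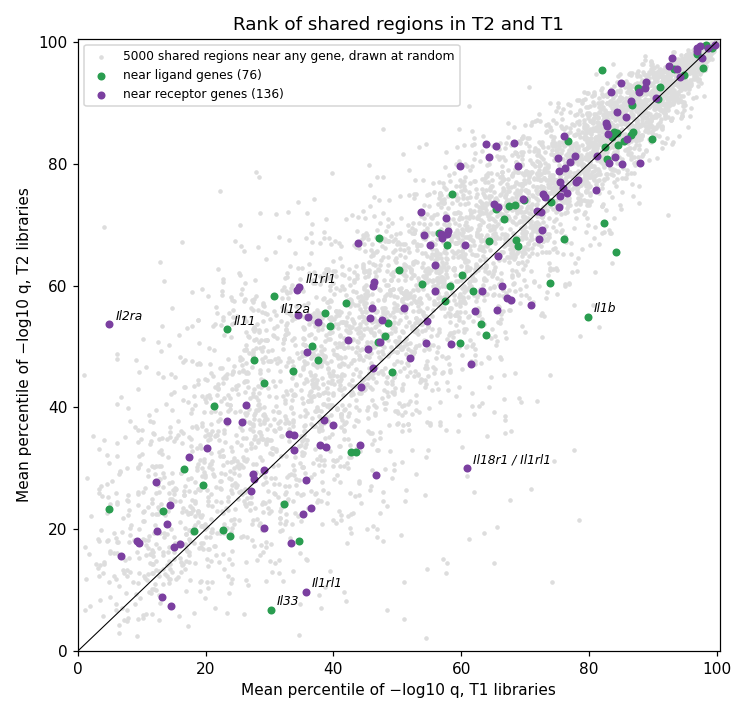
Mean percentile of −log10 q in the T2 libraries (vertical axis) against that in the T1 libraries (horizontal axis) for regions with a peak in all 4 libraries; green points are near ligand genes, purple points near receptor genes and grey points a random draw of regions near any gene, with the line of equality. Member points lie among the grey ones, with Il2ra furthest above the line and Il18r1 / Il1rl1 furthest below.

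Gene clusters are given in both rankings, beside 39.8% higher and 14.3% lower over all shared regions in the whole lists and 25.7 and 26.6% among shared regions. The IL-1 receptor cluster on chromosome 1, with Il1r2, Il1r1, Il1rl2, Il1rl1, Il18r1 and Il18rap, held 38 regions, of which 20 were in all 4 libraries, 11 of them higher and 5 lower in T2 in the whole lists, and 5 higher and 5 lower among shared regions. The locus of Il4, Il13 and Il5, the cytokines of type 2 helper cells, held 10 regions, 9 of them in all libraries, with 5 higher and 0 lower in T2 in the whole lists, and 2 higher and 2 lower among shared regions. The IL-10 cluster of Il10, Il19, Il20 and Il24 held 7 regions, all in 4 libraries, with 3 higher and 0 lower in the whole lists, and 2 higher and 1 lower among shared regions. Il12rb2 and its neighbour Il23r, the IL-23 receptor, held 11 regions with 5 in all libraries. Of these, 2 were higher and 0 lower in the whole lists, and 1 higher and 0 lower among shared regions. Il4ra and Il21r held 23 with 15 in all libraries. There 7 were higher and 3 lower in the whole lists, and 5 higher and 5 lower among shared regions. Il2ra and Il15ra held 8 with 7 in all libraries. There 2 were higher and 1 lower in the whole lists, and 1 higher and 4 lower among shared regions. The IL-36 cluster with Il1rn held 5 regions with 4 in all libraries. There 1 was higher and 0 lower in the whole lists, and 1 higher and 2 lower among shared regions. Il1a and Il1b held 8 with 4 in all libraries, 1 higher and 1 lower in each ranking. Il2 and Il21 held 5 with 2 in all libraries. There 1 was higher and 0 lower in the whole lists, and 0 were called among shared regions. The Il17a and Il17f pair held 1 region, which was not in all libraries.
By family, start peaks in all libraries were found at 1 of 7 ligand genes and 7 of 9 receptor genes of the IL-1 family. These counts were 0 of 4 and 3 of 4 in the IL-17 family, and 1 of 5 and 5 of 8 in the IL-2 and IL-4 families. They were 0 of 3 and 1 of 3 in the IL-10 family. In the IL-6 and IL-12 families ligands and receptors did not differ, with 2 of 5 each. Among ligands whose region counts are not given above, Il27, Il12b, Il15, Il3, Il34, Il21, Il7 and Il17b had 6, 5, 5, 5, 4, 3, 1 and 4 regions. No region near Il34, the second ligand of the M-CSF receptor, was in all 4 libraries.

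Other genes of interleukin pathways, from ligands and receptor chains to kinases, had a peak at every start that the RefSeq table gave. Of 20 such genes (Jak1, Jak2, Jak3, Tyk2, Myd88, Irak1, Irak2, Irak3, Irak4, Traf6, Traf3ip2, Map3k7, Tollip, Sigirr, Ebi3, Tslp, Crlf2, Csf2rb, Csf2rb2 and Casp1), all had a region, beside 81.0% of all protein-coding genes. A start peak in every library was found at 16 of 16 with a start in the table, beside 58.5% of all protein-coding genes. The 20 genes held 135 regions, with 102 in all libraries. Of these, 52 were higher (51.0%, beside 39.8%) and 10 lower in T2 (9.80%, beside 14.3%) in the whole lists, and 25 higher (24.5%, beside 25.7%) and 24 lower (23.5%, beside 26.6%) among shared regions. T2-only regions numbered 6 (4.44%, beside 6.56%) and T1-only regions 4 (2.96%, beside 2.22%), which became 2 and 6 at equal list length. The highest mean percentiles of a region anywhere within 20 kb were 99.6 for Irak2, 98.4 for Tyk2, 98.2 for Myd88 and 97.7 for Irak4. Of these regions, only that of Irak4 was at the gene's own start. The Myd88 start stood at 51.3 and 31.8 in T2, against 35.8 and 24.9 in T1.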

How the data were processed

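ATAC-seq libraries were made with a commercial transposase kit, per the labels' protocols. The submitters' processing notes name Bowtie2, SAMtools, MACS2 and mm10. Their versions and settings, with read filters and any transposase shift, are not given here. Each list has its own prefix in the peak names, so peaks were called per library. The deposited fold is a ratio to local background, and the deposited −log10 q is the significance of the peak against it, both in the column order of MACS2.

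Libraries were grouped by title. Peaks of the assembled autosomes (1 to 19) and both sex chromosomes were kept (66764 and 62704 in T2, 58454 and 54045 in T1) and joined into 77914 regions where they shared 1 bp. Genes came from RefSeq, and start windows (250 bases before to 50 after a start) matched 61 of 78 members. A peak midpoint within 20 kb of a gene body placed a region. Percentiles rank the best −log10 q of a region within its list. The single value per library was tested by exact permutation, and counts over regions are descriptions beside all regions near genes. Analyses used Python 3.11.15 and pandas 2.3.3 and were checked on simulated data. Full values were given for every region found in 1 group alone, the 8 genes per class with the highest regions, and the 4 shared regions with the largest difference in each direction; start regions shown in full beyond these were chosen after their values were seen. Members and lists were chosen with earlier results of these data known. Intervals are 95% Wilson. Alternatives were a minimum −log10 q of 5 or 10, equal list lengths, windows of 0, 10 and 50 kb, fold in place of −log10 q, peaks covering at least 0.5 of a region, summits widened by 250 bp, and each library left out.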

Additional observations from a re-analysis of the deposited data

How the results depend on the processing

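Direction depended on list length. With every list limited to its 54045 strongest peaks, the T2 minus T1 difference in member regions was −4.5 in place of 32, T1-only regions numbered 23, shared regions higher and lower in T2 numbered 45 and 65, their median difference was −0.88 points, and pathway T2-only regions numbered 2. Net T2-only counts reversed there to −1 for Il1rl1 and −2 for Il21r. Ranking among shared regions, an alternative added after seeing the data, gave 52, 64 and −0.97 points. Adding outer gene ends to the start windows, also chosen after seeing the data, cannot lower a count and gave 5 ligand genes and 20 receptor genes. Outer 5′ ends alone gave 2 ligand genes and 17 receptor genes. With −log10 q of at least 10, 21 shared regions were lower in T2 and the median was 3.14 points. Gene bodies alone gave 12 T2-only, 1 T1-only, 37 higher, 12 lower and a median of 3.79 points. They left 16 ligand genes and 31 receptor genes with a region. Windows of 10 kb gave 5 T1-only regions, and windows of 50 kb gave 38 T2-only, 17 T1-only, 138 higher and 63 lower. Where peaks had to cover at least 0.5 of a region, Il1rap had a net count of 1 in place of −1.

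Leaving out 1 library at a time loosens each rule. T2-only regions then numbered 33 to 49, T1-only regions 15 to 21, regions higher in T2 108 to 131 and regions lower in T2 48 to 75. The median ran from 1.66 (without T1 replicate 2) to 3.26 points (without T1 replicate 1), pathway T2-only regions from 7 to 14 and pathway T1-only regions from 5 to 8. The difference in member regions ran from 22 to 42.5. Ligand genes with a start peak in every library numbered 5 or 6 and receptor genes 18 in each case.

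With a replicate block the difference in member regions was 32 (pairs 29 and 35, exact sign permutation p = 0.5, the smallest that 2 pairs allow). Same-numbered libraries share only a number: over all shared regions their deviations had a correlation of 0.02. Counts of reads are not given, so weak peaks missing from a list may be below detection rather than closed.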
